A study of Mus musculus with 6 samples.

Results

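The 9 genes described here are markers of the oligodendrocyte lineage, namely *Olig1*, *Olig2*, *Sox10*, *Pdgfra*, *Cspg4*, *Cnp*, *Mbp*, *Mag* and *Mog*, read in RNA from magnetically isolated mouse astrocytes. They were chosen by name, as the rows whose Ensembl identifier maps to these symbols, and all 9 of 9 symbols had a row among the 17193 genes listed. The cells came from brains of 3-month-old wild type C57BL/6 mice, digested with collagenase, spun through Percoll to take away myelin debris, and captured with microbeads against ACSA-2, a surface antigen of astrocytes. One group of 3 libraries came from mice labelled Mock and the other group of 3 libraries from mice labelled quinpirole, an agonist of the dopamine receptor DRD2. Values are fragments scaled to transcript length in kilobases and to the mapped fragments of the library (FPKM), so levels of different genes can be compared per length. The question here was how much RNA of each stage of the lineage the preparation held, how precursor and myelin genes compared, and whether either differed with quinpirole.

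Oligodendrocytes wrap axons in myelin and arise from precursor cells that persist in the adult brain. OLIG1 and OLIG2 are basic helix-loop-helix transcription factors that specify the lineage, and SOX10 is an HMG-box factor that drives myelin genes within it. PDGFRA, the receptor for platelet-derived growth factor AA, and CSPG4, the NG2 proteoglycan, mark precursors, and both are also known from other cells, PDGFRA from fibroblasts and CSPG4 from pericytes. CNP, a phosphodiesterase of non-compact myelin, and MBP, the basic protein that holds compact myelin together, accompany differentiation, while MAG and MOG are surface glycoproteins of the finished sheath. *Olig2* is also known from some astrocytes.

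Sequencing depth, estimated from the steps between low FPKM values, was 22300000 to 27600000 fragments per library. Summed over all genes, FPKM was 401769 to 413730 with mock and 425244 to 437164 with quinpirole. The FPKM levels and sums given below are not corrected for that difference. Of 12 astrocyte markers, 11 had a mean of at least 1 FPKM, led by *Gfap*, the intermediate filament of astrocytes, at 528 ± 36.1 FPKM (SD, n = 3) with mock and 485 ± 4.35 FPKM with quinpirole, and *Gjb6*, an astrocyte connexin, was the exception at 0.0562 to 0.281 FPKM. Markers of other cells were present too. All 10 microglial markers were above that level, summing to 824.7 to 957.8 FPKM against 1499 to 1673 FPKM for the astrocyte markers. Of 10 neuronal markers 3 were above it, of 8 endothelial markers 2, and of 5 ependymal markers 4. Nothing in the labels says whether each library is a separate mouse, so p-values below measure the spread between these libraries only.

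*Olig1* and *Olig2* were abundant in every library, whereas *Sox10* was scarce. *Olig1* (chr16:91269772-91271933, plus strand, GRCm38, 1 exon) was at 265, 261 and 261 FPKM in mock libraries 1 to 3 and at 281, 291 and 301 FPKM in quinpirole libraries 1 to 3. Its mean ranked 200th of the 17193 genes, with 98.8% of genes below it. *Olig2* (chr16:91225457-91228677, plus strand, 2 exons), whose end lies 41.1 kb before the start of *Olig1* with 1 annotated gene between them, was at 47.9, 45.8 and 43.4 FPKM with mock and 47.2, 48.7 and 48.9 FPKM with quinpirole. *Olig1* exceeded *Olig2* 5.53- to 6.16-fold within each library. *Sox10* (chr15:79154908-79165240, minus strand) was at 0.277, 0.294 and 0.399 FPKM with mock and 0.294, 0.296 and 0.343 FPKM with quinpirole, about 20.3 to 28.3 fragments per library by the depth estimate. The level of *Olig2* was 109 to 173 times that of *Sox10* in the same library, so the 3 factors of the lineage were not present in like amounts.

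Both precursor markers were low. *Pdgfra* (chr5:75152292-75198215, plus strand) was at 0.686, 0.567 and 0.716 FPKM in the mock libraries and 0.351, 0.554 and 0.507 FPKM in the quinpirole libraries. *Cspg4* (chr9:56865033-56899870, plus strand) was at 1.98, 1.66 and 1.36 FPKM with mock and 1.44, 1.15 and 1.42 FPKM with quinpirole. *Cspg4* exceeded *Pdgfra* in all 6 libraries. The 2 genes together summed to no more than 2.67 FPKM in any library.

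The 4 myelin markers spread over the whole scale. *Cnp* (chr11:100574904-100591729, plus strand) was at 151, 159 and 171 FPKM with mock and 160, 169 and 158 FPKM with quinpirole, above 97.8% of genes. *Mbp* (chr18:82475146-82585637, plus strand, 16 annotated transcripts) was at 2.90, 2.58 and 3.01 FPKM with mock and 2.52, 2.74 and 2.35 FPKM with quinpirole, above 38.1% of genes. *Cnp* thus stood at 52.0 to 67.3 times *Mbp* within a library, although both are genes of myelin. *Mag* (chr7:30899176-30914873, minus strand) was at 0.140, 0.132 and 0.144 FPKM with mock and 0.120, 0.0476 and 0.185 FPKM with quinpirole, some 3.0 to 10.1 fragments per library. *Mog* (chr17:37010743-37023398, minus strand) was listed at 0 in mock libraries 1 and 3 and in quinpirole library 2, and at 0.0321, 0.0639 and 0.0301 FPKM in mock library 2 and quinpirole libraries 1 and 3. These are about 5.5 fragments over all 6 libraries, and a count of 0 allows up to 0.0667 FPKM in mock library 1 and 0.0690 FPKM in the other libraries at 0, counting error only. *Mog* was the lowest of the 9 genes and close to the limit of what this depth can show.

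**Figure D1:**
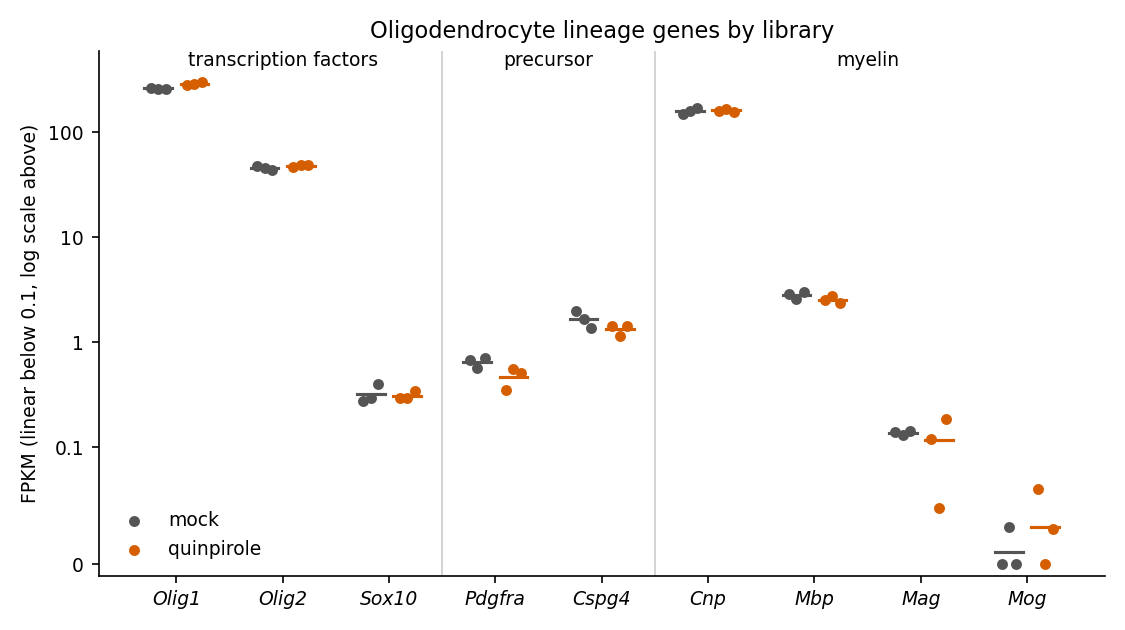
FPKM (vertical axis, log scale above 0.1 and linear below) of the 9 oligodendrocyte lineage genes, with 1 point per library, grey for mock and orange for quinpirole, and a bar at each group mean. *Olig1*, *Cnp* and *Olig2* sit above 40 FPKM in every library, while *Pdgfra*, *Sox10*, *Mag* and *Mog* sit under 1 FPKM.

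In order of mean level the genes ran *Olig1*, *Cnp*, *Olig2*, *Mbp*, *Cspg4*, *Pdgfra*, *Sox10*, *Mag* and *Mog*. The ranges over the 6 libraries overlapped for 2 neighbouring pairs, *Pdgfra* with *Sox10* and *Mag* with *Mog*, although within each library *Pdgfra* exceeded *Sox10* and *Mag* exceeded *Mog*. The first 3 were steady between libraries of a group, with coefficients of variation of 0.793% to 6.15%. The coefficient for *Mag* was 4.49% with mock and 58.4% with quinpirole, and its value in quinpirole library 2 rests on about 3.0 fragments.

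The comparison of precursor with myelin genes therefore depended on which myelin gene was read. *Cnp* lay above both precursor genes by far in every library. *Mbp* was 4.21 to 7.18 times *Pdgfra* in the same library and exceeded *Cspg4* in all 6 libraries. *Mag* and *Mog* fell below both precursor genes in all 6 libraries. As a mean of log2(FPKM + 1), the 4 myelin genes exceeded the 2 precursor genes by 1.19, 1.32 and 1.40 with mock and by 1.49, 1.47 and 1.40 with quinpirole. Without *Cnp* the sign turned, to -0.45, -0.34 and -0.28 with mock and -0.17, -0.21 and -0.26 with quinpirole, so among the members 1 gene decided which group was the higher. The alternative without *Cnp* was chosen after its values were seen. With 22 other myelin and 8 other precursor genes, described below, the precursor genes were the higher in every library. There the difference was -0.73, -0.60 and -0.64 with mock and -0.60, -0.49 and -0.57 with quinpirole.

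Other genes of the lineage, read from lists of precursor, newly formed and myelinating oligodendrocyte markers, showed the same wide range. Of 42 such genes 37 were listed and the other 5, *Neu4*, *Lhfpl3*, *Zfp488*, *Opalin* and *Gjb1*, had no matched row. Their levels are therefore missing from the means and medians of the lists. Of 10 precursor genes named 8 were listed, and of 24 myelin genes 22. No gene listed in the series was at 0 in all libraries. Of the 37, 18 had a mean under 1 FPKM, 6 of them under 0.1 FPKM, and 9 had a mean above 10 FPKM. Of 22 myelin genes 12 were under 1 FPKM, and the median of their means was 0.803 FPKM. That median was 3.70 FPKM for the 8 precursor genes and 5.74 FPKM over all genes listed.

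Among the myelin genes the highest was *Sirt2*, a deacetylase of the sheath that other brain cells use too, at 128 ± 7.60 FPKM with mock and 136 ± 1.42 FPKM with quinpirole. *Nkx6-2*, a homeobox factor of late oligodendrocytes, and *Trf*, which encodes the iron carrier transferrin, followed at means of 35.6 and 24.9 FPKM. Of the 22 myelin genes 5 had a mean of at least 10 FPKM, among them *Anln* at 20.5 FPKM. Several genes known above all from the sheath were much lower. *Mal* and *Cldn11*, both membrane proteins of myelin, were at 2.88 to 3.34 and 2.05 to 2.71 FPKM over the 6 libraries. *Mobp*, another basic protein of myelin, was at 0 to 0.108 FPKM, and *Ermn*, which encodes ermin of the myelinating cell, at 0 to 0.0312 FPKM. *Fa2h*, the fatty acid hydroxylase that makes myelin lipids, was above 0 in mock library 1 only, at 0.0151 FPKM. *Myrf*, the regulator that turns on myelin genes, was at 0.115 to 0.222 FPKM, beside which the low *Sox10*, *Mag* and *Mog* did not stand alone.

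The highest precursor genes were *Ptprz1*, a receptor phosphatase that astrocytes share with precursors, *C1ql1*, a secreted C1q-like protein, and *Sox6*, a transcription factor that holds precursors undifferentiated, with means over the 6 libraries of 30.9, 12.2 and 11.5 FPKM. Of the newly formed stage, *Fyn*, a kinase of myelination, *Tmem163*, a zinc transporter, and *Tcf7l2*, an effector of Wnt signalling, led with 31.6, 6.61 and 5.98 FPKM. *Gpr17* and *Enpp6*, markers of cells that are just differentiating, were at 0.123 to 0.297 and 0.0614 to 0.101 FPKM. High and low genes thus occurred at every stage.

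**Figure D2:**
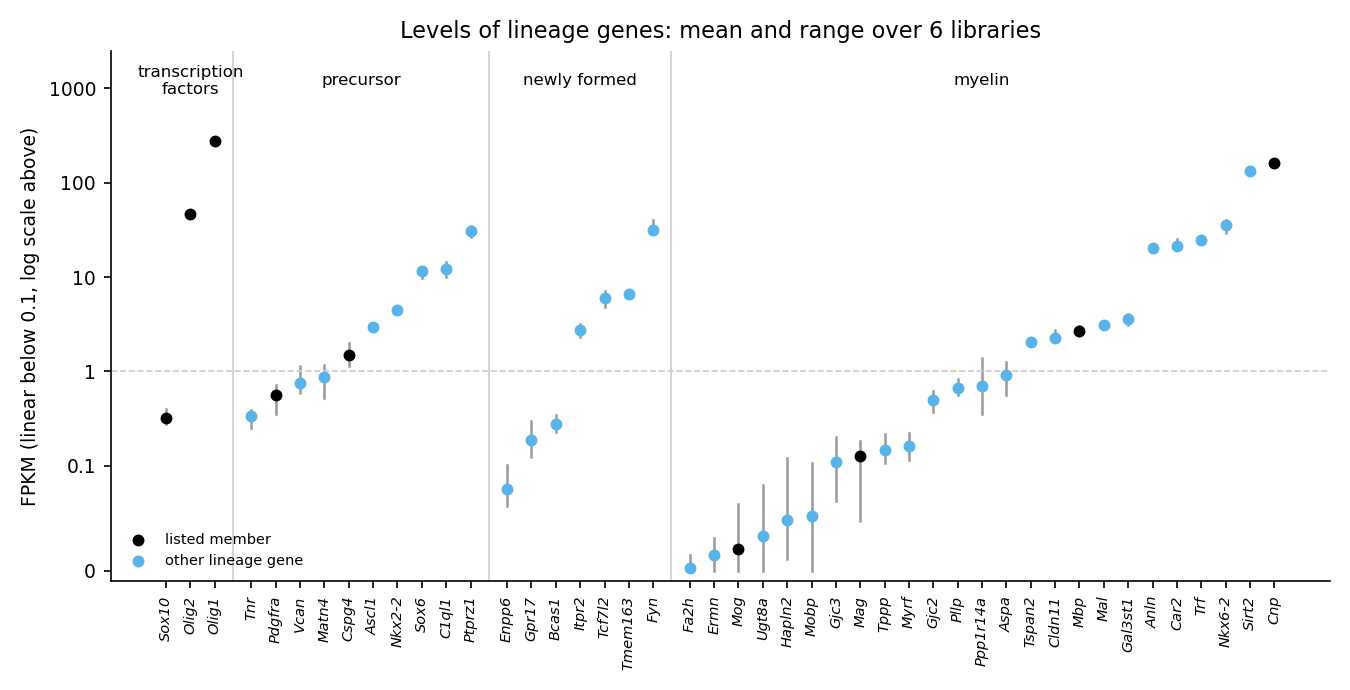
FPKM (vertical axis, log scale above 0.1 and linear below) of the members in black and other listed lineage markers in blue, grouped as transcription factors, precursor, newly formed and myelin, with the mean over the 6 libraries as a point, the range as a line and 1 FPKM dashed. Among the myelin genes *Cnp* and *Sirt2* stand above 100 FPKM while *Mobp*, *Ermn* and *Fa2h* have means under 0.1 FPKM.

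Since the levels of *Olig2*, *Cnp* and *Mog* lay so far apart, the sequences before their start sites are shown, with CG dinucleotides in capitals. They come from RefSeq on GRCm38.p6, and 6 of the 9 genes were matched in the table of start sites used here. The CG pairs were counted on 1 strand in the 250 bases before the RefSeq start, and bases inside the annotated gene are left out of what is printed. *Olig2*, at chr16:91225300-91225456 on the plus strand, and *Cnp*, at chr11:100574689-100574903 on the plus strand, are shown as the abundant genes, and *Mog*, at chr17:37023399-37023648 on the minus strand, as the scarcest.
Olig2: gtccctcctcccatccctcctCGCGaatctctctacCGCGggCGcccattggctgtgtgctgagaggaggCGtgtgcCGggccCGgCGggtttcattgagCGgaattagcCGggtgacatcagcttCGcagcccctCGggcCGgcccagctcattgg
Cnp: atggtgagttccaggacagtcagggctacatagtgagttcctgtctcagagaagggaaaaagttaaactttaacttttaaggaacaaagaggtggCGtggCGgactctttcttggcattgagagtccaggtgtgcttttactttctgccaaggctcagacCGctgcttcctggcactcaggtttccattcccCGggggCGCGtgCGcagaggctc
Mog: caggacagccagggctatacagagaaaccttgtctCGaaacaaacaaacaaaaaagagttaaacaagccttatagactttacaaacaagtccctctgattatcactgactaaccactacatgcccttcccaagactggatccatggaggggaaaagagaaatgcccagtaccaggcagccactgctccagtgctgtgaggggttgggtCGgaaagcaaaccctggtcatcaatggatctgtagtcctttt

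The whole 250-base window held 22 CG pairs for *Olig2*, a number that 14.8% of the 32851 windows reach, 13 for *Cnp*, reached by 31.5%, and 2 for *Mog*, reached by 81.2%. *Cspg4* had 12 (33.5%), *Pdgfra* 4 (62.2%) and *Mag* at most 3 (71.0%). Over the genes of the libraries, the 2114 with 0 to 4 CG pairs had a median of 0.166 FPKM, and the 4398 with 20 or more had a median of 10.9 FPKM. These counts describe the sequence, and nothing was measured at these sites.

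The comparison of quinpirole with mock asked whether any of these genes differed between the groups. Only genes with a mean of at least 1 FPKM were tested, which 5 of the 9 passed (*Olig1*, *Olig2*, *Cspg4*, *Cnp* and *Mbp*). *Sox10*, *Pdgfra*, *Mag* and *Mog* did not, and are given as values. Of the 5 genes, 1 passed the threshold (limma on log2(FPKM + 1), Benjamini-Hochberg adjusted p under 0.05), beside 10.9% of the 12255 genes tested. With 5 genes, 1 call is near that background and is no result about the lineage. The median log2 fold change of the 5 was 0.02, and that of all genes tested was 0.02.

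*Olig1* was the gene past the threshold. It rose from 262.6 ± 2.08 FPKM (SD, n = 3) to 290.9 ± 10.3 FPKM, a difference of 10.8% and a log2 fold change of 0.15 (SE 0.04, 95% interval 0.06 to 0.23, limma adjusted p = 0.0490). Each quinpirole library was above each mock library, which 36.9% of the genes tested also showed in one direction or the other. The FPKM sum over all genes was likewise higher in each quinpirole library. Under median ratio scaling the log2 fold change of *Olig1* was 0.14 (limma adjusted p = 0.0551), and under quantile normalization it was 0.02 (0.760). The part of the higher total in the rise of *Olig1* was not tested. The call was at the edge: over 15 other settings the adjusted p ran from 0.0411 to 0.760, and it passed in 3 of them. Leaving out any 1 of the 6 libraries, mock or quinpirole, ended it, with log2 fold changes of 0.12 to 0.17 and adjusted p of 0.0718 to 0.147. After a correction for transcript length the log2 fold change was 0.06 (adjusted p = 0.389), beside 4.16% of genes called in that fit. *Olig1* shares 157 bases, 7.26% of its exonic length, with *Gm15966*, a non-coding gene on the opposite strand, and the library kit does not mark strand, so reads there cannot be assigned to one of the genes. *Gm15966* had no row among the genes listed, so its level is not known here.

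*Olig2* was at 45.7 ± 2.25 FPKM with mock and 48.3 ± 0.959 FPKM with quinpirole, and the groups overlapped. Its log2 fold change was 0.08 (SE 0.05, 95% interval -0.03 to 0.18, limma adjusted p = 0.280), an interval that holds 0 as well as the value for *Olig1*. *Sox10* was at 0.323 ± 0.0663 FPKM with mock and 0.311 ± 0.0275 FPKM with quinpirole, with overlapping groups. A fit without the filter on low values gave it a log2 fold change of -0.01 (limma adjusted p = 0.890).

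**Figure D3:**
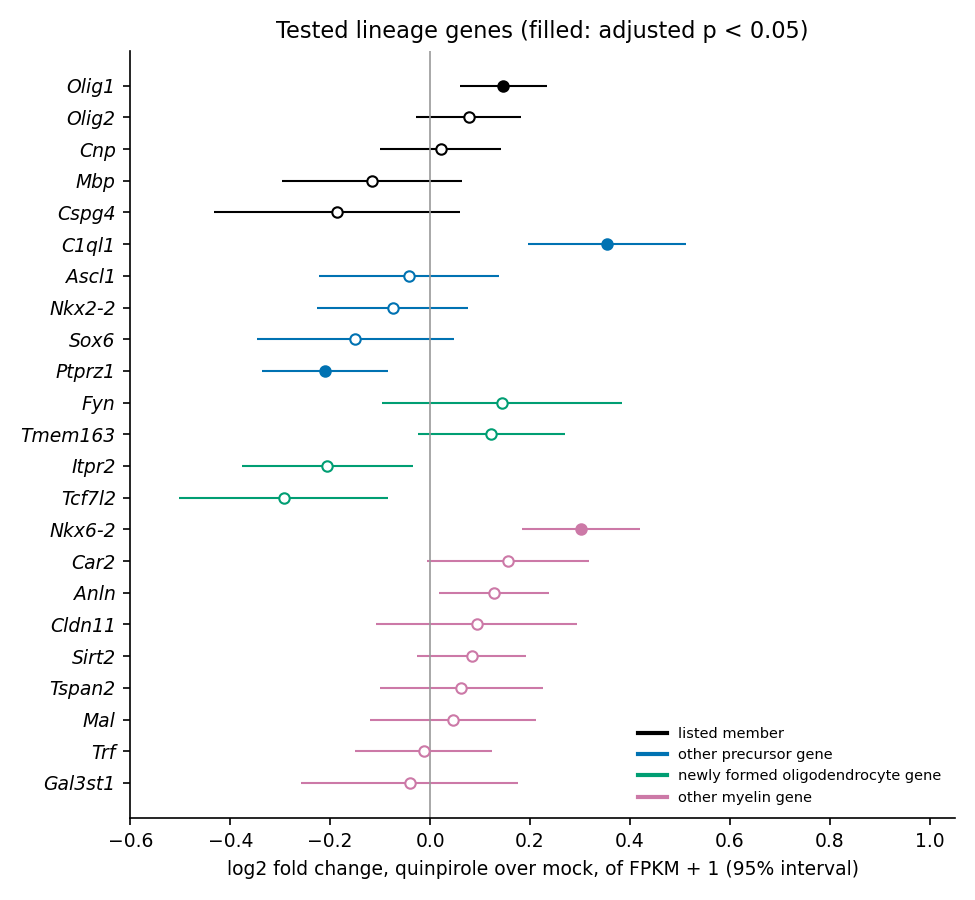
Log2 fold change, quinpirole over mock, of FPKM + 1 (horizontal axis) with 95% intervals from limma for the 5 members and 18 of the 19 other lineage genes tested (1 is counted in the text but not shown), coloured by list and filled where the adjusted p was under 0.05. Among the members tested the interval of *Olig1*, 0.06 to 0.23, is the one that excludes 0.

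*Cspg4*, the precursor gene that was tested, was at 1.67 ± 0.311 FPKM with mock and 1.33 ± 0.161 FPKM with quinpirole, and the groups overlapped. Its log2 fold change was -0.19 (SE 0.11, 95% interval -0.43 to 0.06, limma adjusted p = 0.267), so a fall and a small rise both lie within the error. *Pdgfra* was at 0.656 ± 0.0787 FPKM with mock and 0.471 ± 0.107 FPKM with quinpirole, and each quinpirole library was below each mock library. Of all genes listed, 29.4% had groups that did not overlap, and among the 9 members *Olig1* and *Pdgfra* did not overlap while the other 7 did. In the fit without a filter *Pdgfra* had a log2 fold change of -0.17 (SE 0.07, limma adjusted p = 0.169), which did not pass, and 3.68% of genes were called there. By the depth estimate it rested on 106.9 to 124.7 fragments per mock library and 63.8 to 96.6 per quinpirole library. In bulk RNA, fewer cells of a type and less RNA per cell cannot be told apart.

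Summed markers of 2 cell types that also express these genes were lower with quinpirole too. The 6 pericyte markers summed to 27.2 to 28.9 FPKM with mock and 22.4 to 23.3 FPKM with quinpirole, nearly all of it *Pdgfrb*, the receptor of mural cells, which fell from 26.2 ± 1.10 to 21.2 ± 0.421 FPKM (log2 fold change -0.30, SE 0.05, limma adjusted p = 0.0227). The other pericyte markers were low and went both ways. *Vtn*, which encodes vitronectin, was at 0.711 ± 0.0488 FPKM with mock and 0.457 ± 0.0499 FPKM with quinpirole, with groups apart, and passed in the fit without a filter (log2 fold change -0.23, limma adjusted p = 0.0458). *Rgs5*, a regulator of G protein signalling, was at 0.285 ± 0.123 and 0.357 ± 0.0330 FPKM, with overlapping groups. *Kcnj8* was at 0.0207 to 0.149 and *Abcc9* at 0 to 0.0252 FPKM. *Anpep*, under the filter, was at 0.966 ± 0.156 FPKM with mock and 0.830 ± 0.0961 FPKM with quinpirole. The 5 fibroblast markers summed to 120.6 to 136.1 FPKM with mock and 96.8 to 108.5 FPKM with quinpirole. Of these, *Col1a1*, a chain of type I collagen, fell from 96.5 ± 6.87 to 76.1 ± 5.40 FPKM (log2 fold change -0.34, SE 0.07, limma adjusted p = 0.0298), while *Col1a2*, the partner chain, had a log2 fold change of -0.11 (limma adjusted p = 0.248). Neither call held in every fit that left out 1 library: both passed without mock library 3 and in no other, where the adjusted p was 0.0506 to 0.0905 for *Pdgfrb* and 0.0539 to 0.0962 for *Col1a1*. *Dcn*, a proteoglycan that defines fibroblasts, went the other way, at 0.907 ± 0.218 FPKM with mock and 1.18 ± 0.204 FPKM with quinpirole (log2 fold change 0.20, limma adjusted p = 0.274), and *Lum*, another, was at 0 to 0.164 FPKM. The part of these cells in the values of *Pdgfra* and *Cspg4* was not tested.

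The tested myelin genes did not pass. *Cnp* was at 160.2 ± 9.86 FPKM with mock and 162.4 ± 5.67 FPKM with quinpirole, a log2 fold change of 0.02 (SE 0.05, 95% interval -0.10 to 0.14, limma adjusted p = 0.813), whose direction turned under other scalings and with other libraries left out. *Mbp* was at 2.83 ± 0.225 and 2.54 ± 0.198 FPKM, a log2 fold change of -0.12 (SE 0.08, 95% interval -0.30 to 0.06, limma adjusted p = 0.340). *Mag*, at 0.139 ± 0.00622 and 0.118 ± 0.0688 FPKM, and *Mog*, at 0.0107 ± 0.0185 and 0.0313 ± 0.0320 FPKM, were too low for a difference to be detectable at this depth. *Cnp* overlaps *Dnajc7* on the opposite strand by 154 bases, 4.23% of its exonic length, and *Dnajc7* was at 50.6 to 55.2 FPKM, so a small part of the reads there cannot be assigned.

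**Figure D4:**
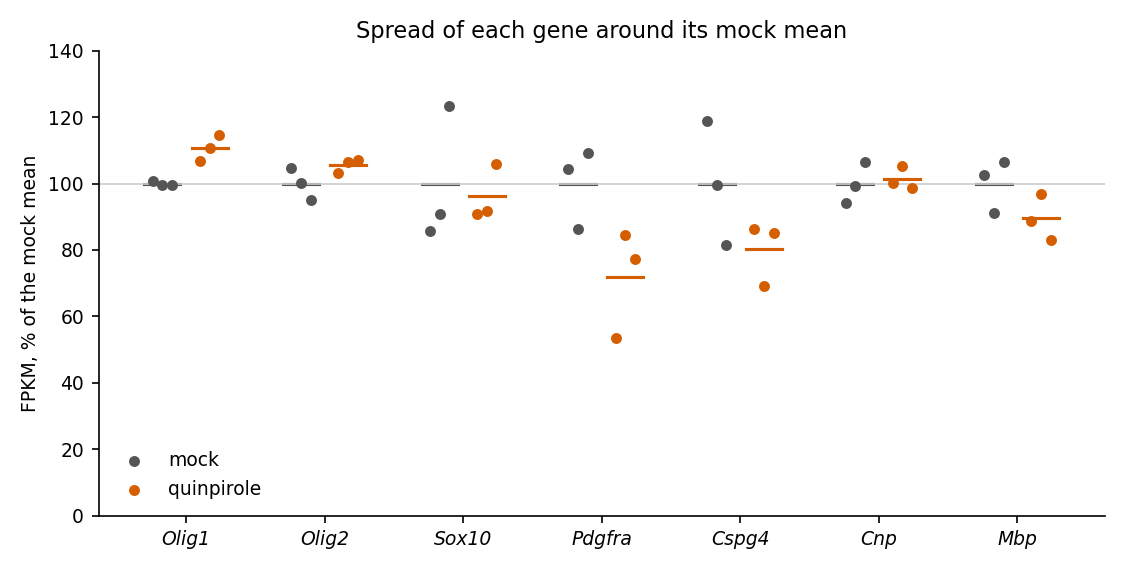
FPKM as a percentage of the mock mean (vertical axis) for 7 members, with 1 point per library, grey for mock and orange for quinpirole, and a bar at each group mean. *Mag* and *Mog*, which rest on few fragments, are left out. The quinpirole points of *Olig1* lie above all its mock points and those of *Pdgfra* below all of its own, and the other genes overlap.

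The difference between myelin and precursor genes, on the scale given above, had a mean of 1.30 ± 0.107 with mock and 1.46 ± 0.0465 with quinpirole (SD, n = 3), that is 0.16 higher with quinpirole, against a pooled SD of 0.08. The groups did not overlap, though the highest mock value and the lowest quinpirole value both round to 1.40. Both precursor genes were lower with quinpirole on this scale, by log2 fold changes of -0.17 for *Pdgfra* and -0.19 for *Cspg4*. The myelin genes ran from -0.12 for *Mbp* to 0.03 for *Mog*. Without *Cnp* the difference between the groups was 0.14, and with the other precursor and myelin genes in place of the members it was 0.11. With a pseudocount of 0.1 it was 0.33, and after the correction for transcript length it was 0.047, less than the pooled SD of the uncorrected values. No p is given because the genes were chosen with results known.

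Among the other lineage genes, 3 of 19 tested passed the threshold, beside the 10.9% of all genes given above: 2 were higher with quinpirole (5.74% of all genes), 1 was lower (5.18%) and 16 did not pass. Their median log2 fold change was 0.05. Of 5 precursor genes tested 1 rose and 1 fell, of 4 newly formed genes none passed by limma, 2 of them with an unadjusted p under 0.05, and of 10 myelin genes 1 rose.

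*C1ql1* was at 11.4, 9.91 and 10.5 FPKM with mock and 12.8, 14.2 and 14.5 FPKM with quinpirole, and rose by 0.35 on the log2 scale (SE 0.07, limma adjusted p = 0.0277). *Nkx6-2* was at 29.6, 33.5 and 32.3 FPKM with mock and 39.1, 39.3 and 39.8 FPKM with quinpirole, and rose by 0.30 (SE 0.05, limma adjusted p = 0.0247). *Ptprz1* was at 33.4, 34.5 and 31.8 FPKM with mock and 29.8, 26.7 and 29.3 FPKM with quinpirole, a log2 fold change of -0.21 (SE 0.05, limma adjusted p = 0.0493). In all 3 the groups were apart, upwards for *C1ql1* and *Nkx6-2* and downwards for *Ptprz1*.

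These 3 genes differ in annotated exonic length, and the part of length in their calls was not tested. The genes that rose have short annotated exonic lengths, 1473 bases for *C1ql1* and 1907 bases for *Nkx6-2*, and the gene that fell, *Ptprz1*, has 14245 bases. After the length correction the log2 fold changes were 0.24, 0.21 and -0.04 with adjusted p of 0.0925, 0.0592 and 0.530, and none of the 3 passed. The same correction brought *Anln*, a scaffold protein of the myelin list with 9063 bases, past the threshold, from a log2 fold change of 0.13 (limma adjusted p = 0.116) to 0.21 (0.0481). Leaving out 1 library at a time ended the call of *Ptprz1* each time, with adjusted p of 0.0514 to 0.152. *C1ql1* and *Nkx6-2* passed without mock library 3 and in no other such fit, where the adjusted p was 0.0590 to 0.0987 and 0.0554 to 0.0905.

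The remaining leading genes did not pass. *Sox6* had a log2 fold change of -0.15 (limma adjusted p = 0.266), *Tmem163* 0.12 (0.228), *Sirt2* 0.08 (0.266) and *Trf* -0.01 (0.900). *Fyn* had 0.14 (0.377), set by quinpirole library 3 at 39.8 FPKM, the other 5 libraries being at 29.2 to 31.2 FPKM. *Tcf7l2* went from 6.68 ± 0.529 to 5.28 ± 0.638 FPKM with groups that did not overlap, a log2 fold change of -0.29 (SE 0.09, limma adjusted p = 0.0731).

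Lists of other cell types were read in the same fit, for what else moved between the groups. Of 11 astrocyte genes tested 2 fell, *Slc1a2*, the main glutamate transporter of astrocytes (log2 fold change -0.42, limma adjusted p = 0.0297), and *Atp1b2*, which encodes the ACSA-2 antigen itself (-0.19, 0.0382). *Gfap* had -0.12 (0.163) and *Aldoc*, a glycolytic enzyme of astrocytes, -0.02 (0.869). Of 3 neuronal genes tested *Stmn2*, a regulator of microtubules, rose by 0.22 (0.0322) and *Tubb3*, a neuronal tubulin, had 0.21 (0.0844). Summed neuronal markers were at 74.0 to 79.3 FPKM with mock and 86.4 to 92.9 FPKM with quinpirole. Nearly all of that sum was *Stmn2* and *Tubb3*, at means of 59.1 and 19.5 FPKM over the 6 libraries. Of the 10 neuronal markers 7 had a mean under 1 FPKM, and these went both ways.

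Of the microglial genes *C1qa* and *C1qb*, subunits of complement C1q, had log2 fold changes of 0.21 (limma adjusted p = 0.0526) and 0.07 (0.496). *Csf1r* and *Cx3cr1*, receptors of microglia, went the other way, with quinpirole libraries below all mock libraries and log2 fold changes of -0.16 (0.0531) and -0.12 (0.140). The microglial sum was 824.7 to 877.9 FPKM with mock and 880.6 to 957.8 FPKM with quinpirole. None of 2 endothelial and 4 ependymal genes passed by limma, with 1 in each list at an unadjusted p under 0.05. *Kdr* and *Flt1*, receptors of endothelial growth factor, had -0.20 (0.158) and -0.18 (0.163), and *Foxj1* and *Rarres2* of the ependymal list had -0.04 (0.586) and 0.09 (0.528). After the length correction the log2 fold change of *Slc1a2* was -0.27 and did not pass (limma adjusted p = 0.0573), while *Atp1b2* (0.0419) and *Stmn2* (0.0454) did. *Dynlrb2*, a dynein light chain of the ependymal list, passed there too, with a log2 fold change of -0.51 (0.0409) against -0.37 (0.1004) before, and its groups did not overlap. With 1 library left out *Stmn2* passed without mock library 3 and in no other fit, where the adjusted p was 0.0572 to 0.112. *Foxj1*, a regulator of cilia, was at 125 ± 4.77 FPKM with mock and 122 ± 3.90 FPKM with quinpirole. The part of these cells in the level of *Olig1*, which was higher in the same libraries as the neuronal and microglial sums, was not tested.

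**Figure D5:**
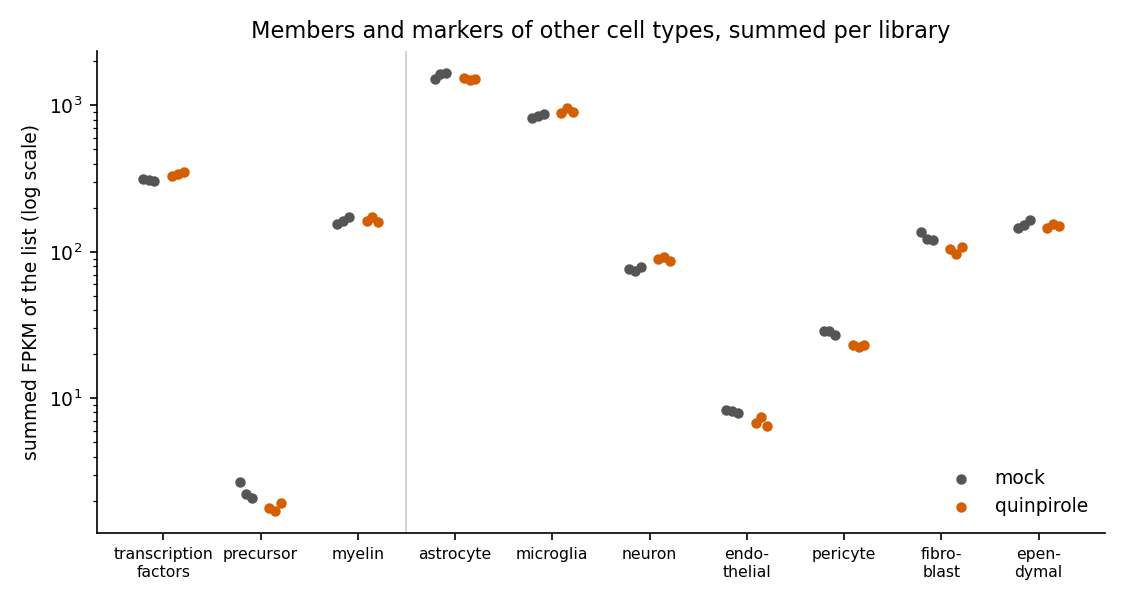
Summed FPKM per library (vertical axis, log scale) of the 3 groups of members, left of the line, and of 7 marker lists of other cell types, right of it, with 1 point per library, grey for mock and orange for quinpirole. The quinpirole points of the transcription factors, neurons and microglia lie above all mock points, and those of the precursor members, endothelial cells, pericytes and fibroblasts lie below all of them. Most of the transcription factor sum is *Olig1*, and the groups overlapped for *Olig2* and for *Sox10*. Most of the precursor sum is *Cspg4*, whose own groups overlapped.

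The genes whose pattern over the 6 libraries was most like the mean of the 4 myelin members were *Cdh13*, *Zmym2* and *Nemf*, with root-mean-square differences of 0.0119, 0.0128 and 0.0131 on the log2 scale, where the myelin mean itself ranged over 0.07. Such a flat pattern sets little apart. Most like the mean of *Pdgfra* and *Cspg4*, which ranged over 0.30, were *Zic1*, *Brf1* and *Upf1*, at 0.0095, 0.0131 and 0.0186. *Zic1*, which encodes a zinc finger factor, was at 11.3, 10.2 and 9.91 FPKM with mock and 9.05, 9.06 and 9.49 FPKM with quinpirole, falling below all mock libraries as *Pdgfra* did. The likeness is over 6 libraries that share their groups and was picked from 12255 genes, so it is a description.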

How the data were processed

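RNA was measured in 6 libraries of ACSA-2 microbead-isolated mouse astrocytes, 3 labelled Mock and 3 labelled quinpirole. The libraries were made from poly-T selected RNA with a kit that does not mark strand and sequenced as paired ends. The authors deposited 1 FPKM value per gene and library, thus already divided by transcript length and depth. The submitters' processing notes name TopHat2 and GRCm38, and the study kept reads with at most 1 mismatch. The TopHat2 version and the program and annotation behind FPKM are not given in the sources used here, and the values do not allow a count test.

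Identifiers were matched to symbols (17090 of 17193), and positions and lengths were taken from GENCODE M21 on GRCm38. Depth was estimated from the steps of low values in 1254 genes with 1 transcript of at least 2000 bases. Of 167 to 206 low values per library 60.2% to 68.9% were within 0.1 of a whole fragment, so fragment numbers are approximate. Fragment numbers of the members also took the length of the longest annotated transcript. For *Mag* this is 2434 bases against an exonic length of 4072 bases, and a greater length would give more fragments. Genes with a mean of at least 1 FPKM were tested with limma 3.58.1 in R 4.3.3 (lmFit, eBayes with trend, two-sided) on log2(FPKM + 1), where fold changes of low genes are understated, with Benjamini-Hochberg adjustment over all 12255 genes at 0.05. The script was tested on simulated data. The length correction subtracted a loess fit (span 0.3) on log2 exonic length from each library.

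Genes named are the 9 members, the 3 highest of each other lineage list and any past the threshold, the 2 highest of each other cell type list, and the 3 most like the myelin and the precursor mean. *Mal*, *Cldn11*, *Mobp*, *Ermn*, *Fa2h*, *Myrf*, *Gpr17*, *Enpp6*, *Gjb6*, *Slc1a2*, *Atp1b2*, *Rgs5*, *Kcnj8*, *Abcc9*, *Vtn*, *Dcn*, *Lum*, *Csf1r*, *Cx3cr1*, *Anln* and *Dynlrb2* were added after their values were seen. Members and lists were chosen with earlier results of these data known. Alternatives were another pseudocount, other filters, scalings and variance settings, a replicate block, the length correction and leaving out each library. A few genes of the lists are counted but not reported here by name.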

Additional observations from a re-analysis of the deposited data

How the results depend on the processing

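Genes past the threshold numbered 1339, and 633 without a filter, 783 after quantile normalization (36.1% of them higher, against 52.6%), 714 without the variance trend, 509 after the length correction, and 3 to 1215 when 1 library was left out (6 without mock library 1, 3 without mock 2, 1215 without mock 3, 11 without quinpirole 1, 25 without quinpirole 2 and 210 without quinpirole 3). Labels number the libraries 1 to 3 in both groups, but 0 of 6 libraries correlated best with their own number (same-number correlations -0.10 to 0.03, others -0.10 to 0.15). With the number as a replicate block, 2 genes passed by limma (3308 at an unadjusted p under 0.05), and 0 members.

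The members past the threshold, 1 at first, were also 1 with a pseudocount of 0.1, a minimum mean of 5 FPKM and robust estimation. They were 0 by limma without a filter (2 at an unadjusted p under 0.05), under median ratio scaling (1), quantile normalization (0), without the trend (1), under the block (1) and after the length correction (0), and 0 in each fit with 1 library left out (1 to 2). The myelin minus precursor difference between groups was 0.16, with 0.33 at a pseudocount of 0.1, 0.047 after the length correction and 0.10 to 0.20 with 1 library left out.

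The direction turned under quantile normalization for *Cnp* (-0.079), *Sirt2* (-0.024), *C1qb* (-0.054) and *Zmym2* (0.0015), and after the length correction for *Cnp* (-0.019), *Sox6* (0.031), *C1qb* (-0.061), *Col1a2* (0.029), *Cdh13* (0.084), *Zmym2* (0.040) and *Nemf* (0.083). With 1 library left out it turned for *Cnp* (-0.020 to 0.067), *Trf* (-0.050 to 0.038), *Aldoc* (-0.088 to 0.037) and *Zmym2* (-0.044 to 0.0030). The cause was not tested. Of 492 values for 33 named genes 415 kept direction and side of the threshold. Of 73 values for the 5 tested members, 57 did, 12 lost the call and 4 turned. *Sox10*, *Pdgfra*, *Mag* and *Mog* were tested only without a filter, and depth limits what *Mag* and *Mog* can show.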
